A study of Rattus norvegicus with 9 samples.

Results

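The mitochondrial beta oxidation enzymes are the proteins that shorten fatty acids inside the mitochondrion, and their genes were followed here in white blood cells of rats on a fattening diet. The set held 10 genes, Acadvl, Acadl, Acadm, Acads, Echs1, Hadha, Hadhb, Hadh (written under its old name Hadhsc on the array), Acaa2 and Decr1. They were chosen by name, through every probe that carried the gene's name or a RefSeq transcript of it, which gave 15 of the 41012 probes of the array and 10 of the 15182 genes that could be named on it through RefSeq. All 15 were found by name and by transcript alike, and all 15 passed the filter on dim probes. Acaa2, Acadvl and Hadh had 2 probes each, Hadha had 3, and the other 6 genes had 1.

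The cafeteria group was 5 male Wistar rats whose chow was supplemented with fatty, energy-rich cafeteria food during 4 months, starting when they were 2 months old, and the control group was 4 male Wistar rats of the same age kept on chow alone. All 9 were bled in the fed state at 6 months, and the mononuclear cells of the blood (PBMC, mostly lymphocytes and monocytes) were taken off a Ficoll gradient. A control sample with too little RNA was dropped by the submitters. The labels give no body weight or cell count, and only males were studied. Each rat had its own array, on which its RNA was read in Cy5 against a Cy3 pool of all samples. A log2 ratio of 0, after background correction and loess normalization within the array, marks equal signal of rat and pool. The dyes were not swapped, so any dye bias of a probe stays in its ratio, on the arrays of both groups. The sign of a ratio therefore does not by itself place a rat above or below the pool. The labels put separate animals on separate arrays, so the spread between arrays holds both animal and technical variation.

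A fatty acid enters the mitochondrion as a carnitine ester and is turned back into an acyl-CoA. Each round of beta oxidation then removes a pair of carbons as acetyl-CoA in a fixed order of reactions, a first dehydrogenation, a hydration, a second dehydrogenation and a thiolytic cleavage. The enzymes differ mainly in the chain length that they accept, and several of their genes are targets of the fatty acid receptor PPAR alpha. Lymphocytes and monocytes hold the whole pathway, and resting lymphocytes draw on it more than dividing ones, which lean on glucose.

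Hadha and Hadhb, which encode the subunits of the mitochondrial trifunctional protein, start head to head on chromosome 6, so the same stretch of DNA lies before both. That stretch is printed because the ratios of both genes are followed side by side across the arrays, and the stretches before Acadvl and Echs1 are printed because, of the 7 member genes in the RefSeq promoter table (GRCr8), only these hold the nuclear receptor core AGGTCA before the outermost start of the gene. Sequences run 5′ to 3′ along the gene's strand (the plus strand for Hadhb to Hadha), and capitals mark AGGTCA or the Sp1-type box GGGCGG on either strand. The stretches are chr6:31907558-31907800 (plus strand, 243 bases), chr10:55236787-55236955 (minus strand, 169 bases) and chr1:204333507-204333756 (minus strand, 250 bases).
Hadhb to Hadha: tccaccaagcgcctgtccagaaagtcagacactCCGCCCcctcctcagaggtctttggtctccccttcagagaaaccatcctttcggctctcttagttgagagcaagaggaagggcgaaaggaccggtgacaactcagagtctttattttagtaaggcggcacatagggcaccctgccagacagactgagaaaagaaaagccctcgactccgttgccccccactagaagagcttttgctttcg
Acadvl: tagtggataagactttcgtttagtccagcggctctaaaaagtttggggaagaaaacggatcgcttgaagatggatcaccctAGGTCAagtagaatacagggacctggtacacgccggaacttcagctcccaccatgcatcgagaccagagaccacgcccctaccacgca
Echs1: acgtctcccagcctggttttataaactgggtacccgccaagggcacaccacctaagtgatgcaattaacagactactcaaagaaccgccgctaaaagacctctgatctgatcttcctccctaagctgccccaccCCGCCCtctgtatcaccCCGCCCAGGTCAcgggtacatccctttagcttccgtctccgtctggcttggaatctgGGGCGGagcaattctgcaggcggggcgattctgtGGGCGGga

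Over the windows of the table, from 250 bases before to 50 after a gene's start, AGGTCA was present on either strand in 3 of the 7 member genes (Acadvl, Echs1 and Hadhb) and in 16.2% of all 33469 windows. The Hadhb match and a further Acadvl match lie past the outermost start, outside the printed stretches. The direct repeat that PPAR and RXR bind together (AGGTCA, then any base, N, then AGGTCA again, so each of its matches is also a match to AGGTCA) was in 0 of the 7 and in 0.0538% of all windows. GGGCGG was in 6 of the 7, all but Acadvl, and in 33.1% of all windows. Acadl, Acaa2 and Decr1 are named only.

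Cy5 was well above background for 58.8% of spots other than controls on the array with the fewest and for 66.7% on the array with the most. The member probes were well above background on every array except Hadha probe 1, which missed on cafeteria 10 and control 13 and whose Cy5 signal was only 1.66 to 4.17 times the local background. No member spot was saturated or marked as an outlier. The arrays lay on 7 slides, of which only slide 3 (cafeteria 1, control 1) and slide 5 (cafeteria 10, control 13) held both groups. The images were read in 2 feature extraction runs, run 1 with cafeteria 4, control 4 and control 7 and run 2 with the other 6 arrays. Slides 3 and 5 lie within run 2 and hold its only controls, so differences within them and within run 2 are not independent. Of the defining markers of the cells in a mononuclear preparation, 7 of 8 T cell, 5 of 6 B cell, 5 of 5 NK cell and 4 of 5 monocyte genes were measured. No probe carried the names Lck or Cd79a, and Cd163 did not pass the filter.

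No enzyme of the pathway passed the threshold between the diets. By limma, 0 of the 15 member probes had an adjusted p under 0.05, against 0.00775% of all 25805 probes tested (2 probes). An unadjusted p under 0.05 was found for 4 of the 15 probes and for 4.40% of all probes. Of the 4, those of Acads and Acaa2 (3 probes) were higher in cafeteria rats, as were 1.54% of all probes, and that of Decr1 was lower, as were 2.86% of all probes. The limma adjusted p was 0.997 for 14 of the probes and 1.00 for the probe of highest signal of Hadha. Values of the groups overlapped on all 15 member probes, whereas they did not overlap for 1.27% of all probes.

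Whatever the p, 8 of the 10 genes, each taken by its probe of highest mean signal, had a higher mean log2 ratio in cafeteria rats, and Hadhb and Decr1 had a lower one. The median log2 fold change of cafeteria over control was 0.092 over the 10 genes and 0.0092 over all probes tested, of which 54.3% were above 0. By probe, 11 of 15 were above 0, with a median of 0.065. The count of 8 was 6 with the slide as a fixed block, which compares arrays only within slides 3 and 5, and 6 without cafeteria 1. It was 9 with Cy5 alone, not divided by the pool, without control 1 and without cafeteria 13. With the authors' deposited log2 values, which follow Cy5 and shift the median of all probes by 0.13, it was 9, and 8 once these were centred. The members' median was 0.047 without cafeteria 1. Across all probes tested the 5th and the 95th percentile of the log2 fold change were -0.24 and 0.17, and of the 10 genes Acads and Acaa2 lay above that span and Decr1 below it. In RNA of mixed blood cells, fewer cells of a type and less RNA per cell cannot be told apart, for these and for all other genes.

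**Figure D1:**
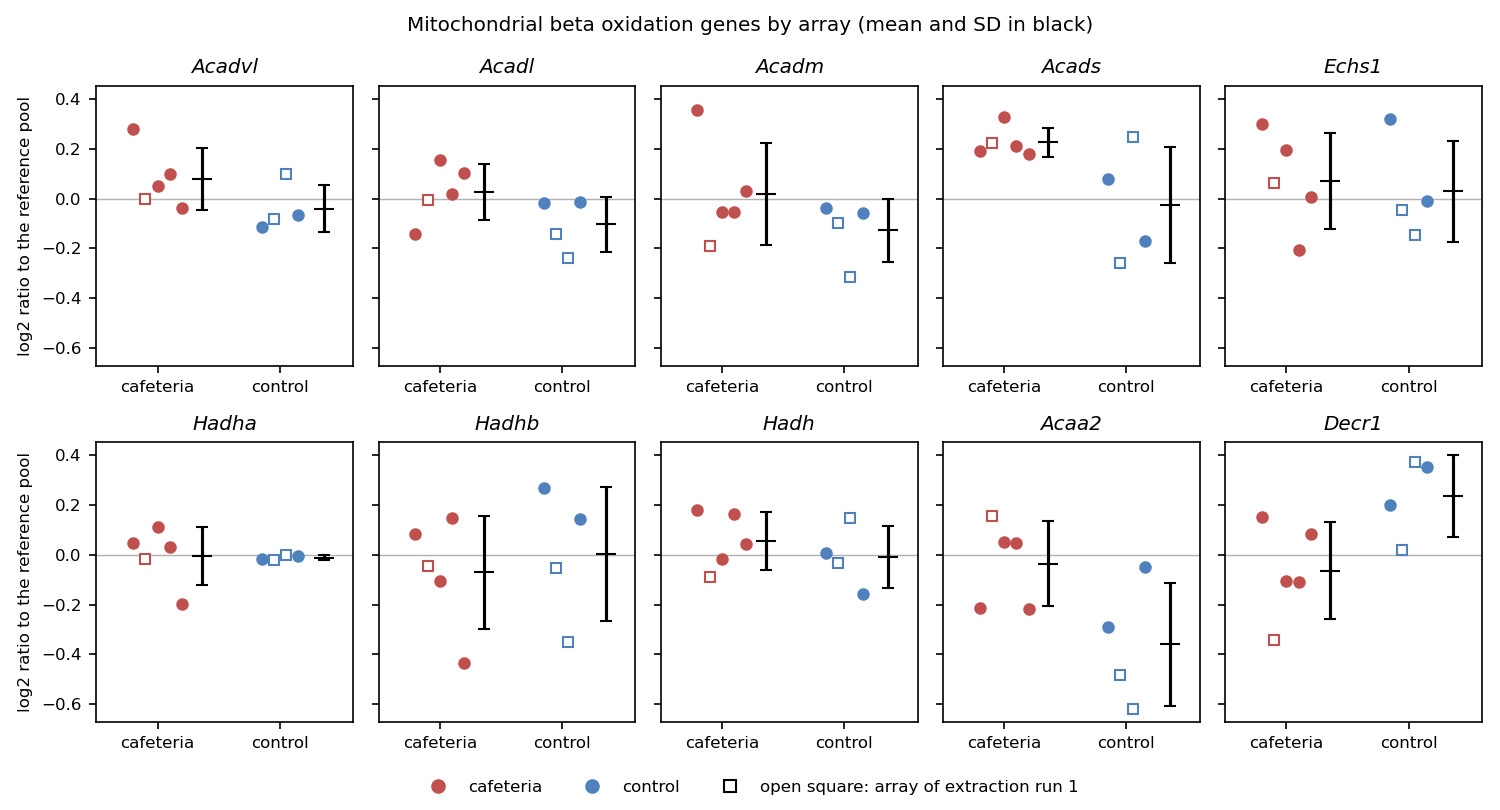
Log2 ratio of each array to the reference pool (vertical axis) for the 10 genes, each by its probe of highest mean signal, with the 5 cafeteria arrays in red left of the 4 control arrays in blue, open squares for extraction run 1, and the group mean and SD in black. The groups overlap in all 10 panels, the cafeteria values of Acads sit close together, and Hadhb and Hadha are lowest among cafeteria arrays on cafeteria 13.

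**Figure D2:**
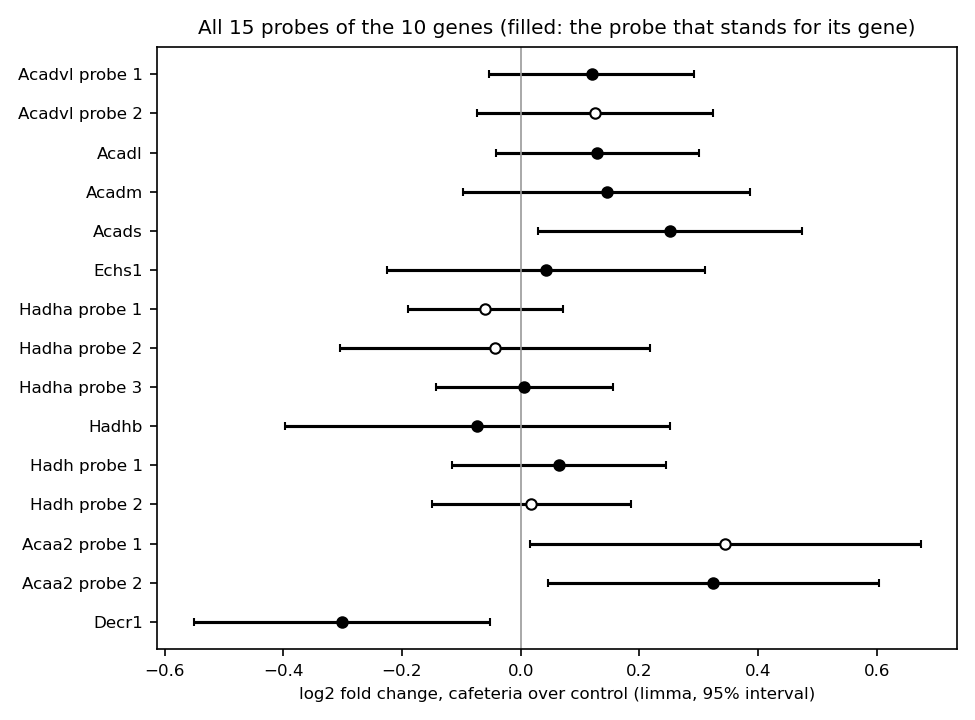
Log2 fold change of cafeteria over control (horizontal axis) with its 95% limma interval for all 15 probes, filled where the probe stands for its gene. The intervals of Acads, both Acaa2 probes and Decr1 leave out 0 before adjustment, and the other 11 hold it.

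The first dehydrogenation is made by the acyl-CoA dehydrogenases. Of these, Acads, which acts on short chains (chromosome 12, 42774463 to 42774522, plus strand, on the rn4 build of the files), stood furthest apart. Its log2 ratios were 0.19, 0.22, 0.33, 0.21 and 0.18 on cafeteria arrays 1, 4, 7, 10 and 13, against 0.079, -0.26, 0.25 and -0.17 on control arrays 1, 4, 7 and 13. The cafeteria values were close together and all above 0, while the controls were spread on both sides of it, and control 7 lay above all cafeteria values but that of cafeteria 7. The means were 0.23 ± 0.059 (SD, n = 5) in cafeteria rats and -0.026 ± 0.23 (SD, n = 4) in control rats, giving a log2 fold change of 0.25 (SE 0.099, 1.19-fold), which did not pass (limma unadjusted p = 0.0299, adjusted p = 0.997). The difference was 0.11 within slide 3, 0.38 within slide 5, 0.23 within run 1 and 0.27 within run 2.

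Acadvl, the dehydrogenase for very long chains at the inner membrane, was read by 2 probes on chromosome 10 (probe 1 at 56856347 to 56856406 and probe 2 at 56857370 to 56857429, minus strand). Probe 1 was at 0.28, -0.00084, 0.052, 0.10 and -0.039 on cafeteria arrays 1, 4, 7, 10 and 13, against -0.11, -0.083, 0.10 and -0.068 on control arrays 1, 4, 7 and 13. The cafeteria mean rests mostly on cafeteria 1, since the log2 fold change of 0.12 (SE 0.077) came to 0.070 without it. Probe 2 gave nearly the same difference, 0.13 (SE 0.089), but from other arrays: cafeteria 1 was below the cafeteria mean on it and cafeteria 10 was highest, at 0.085. The difference on probe 2 was 0.079 without cafeteria 10 and 0.20 without cafeteria 13.

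Acadl, for long chains (chromosome 9, 65613235 to 65613294, minus strand), averaged 0.026 ± 0.11 (SD, n = 5) in cafeteria rats and -0.10 ± 0.11 (SD, n = 4) in control rats, giving a log2 fold change of 0.13 (SE 0.077). Its cafeteria values ran from -0.14 to 0.16 and its control values from -0.24 to -0.014, so cafeteria 1 lay among the controls. With the slide as a block the difference was -0.047, within slide 3 it was -0.12, and without control 7 it was 0.084. Acadm, for medium chains, the enzyme missing in the most common inherited defect of human fatty acid oxidation (chromosome 2, 251867002 to 251867061, minus strand), averaged 0.017 ± 0.20 (SD, n = 5) in cafeteria rats and -0.13 ± 0.13 (SD, n = 4) in controls. Its difference of 0.15 (SE 0.11) was 0.061 without cafeteria 1, which at 0.36 stood above every other array, and 0.082 without control 7, which at -0.32 stood lowest. All 4 dehydrogenases thus had a higher mean in cafeteria rats, with overlapping groups, and none passed the threshold.

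Hydration of the short and medium intermediates is the task of Echs1 (chromosome 1, 199901723 to 199901782, minus strand). It differed little, with 0.072 ± 0.19 (SD, n = 5) in cafeteria rats and 0.030 ± 0.20 (SD, n = 4) in control rats, giving a log2 fold change of 0.042 (SE 0.12, limma adjusted p = 0.997). The 95% interval of -0.23 to 0.31 is wider than the difference, and the sign turned with the slide as a block (-0.11) and without cafeteria 1 (-0.015). Cafeteria 1 and control 1, which shared slide 3, had its highest values, 0.30 and 0.32.

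For long chains, hydration, the second dehydrogenation and cleavage are all made by the trifunctional protein. Hadha encodes its hydratase and dehydrogenase subunit. The files place its 3 probes on a part of chromosome 6 that rn4 leaves unplaced (probe 1 at 452205 to 452264, probe 2 at 467174 to 467737 and probe 3 at 468441 to 468500, plus strand). On probe 3, the brightest, the ratios were 0.047, -0.018, 0.11, 0.033 and -0.20 on cafeteria arrays 1, 4, 7, 10 and 13, against -0.017, -0.021, -0.0021 and -0.0057 on control arrays 1, 4, 7 and 13. All 4 controls were close to 0, and the cafeteria arrays spread to both sides of them. The log2 fold change was 0.0062 (SE 0.067, 95% interval -0.14 to 0.16). Probe 2 gave -0.044 (SE 0.12) and the dim probe 1 gave -0.060 (SE 0.059), so the 3 probes differ in sign but each interval holds 0.

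Hadhb encodes the long-chain thiolase subunit (chromosome 6, 26144500 to 26144559, minus strand). It was at 0.082, -0.045, -0.10, 0.15 and -0.43 on cafeteria arrays 1, 4, 7, 10 and 13, against 0.27, -0.052, -0.35 and 0.14 on control arrays 1, 4, 7 and 13. Both groups held clearly positive and clearly negative ratios, and of the 10 genes it had the largest residual SD, 0.25 on the log2 scale. The log2 fold change was -0.073 (SE 0.15, limma adjusted p = 0.997), and it turned to 0.040 with median centring in place of loess, to 0.071 with Cy5 alone, to 0.016 without control 1 and to 0.018 without cafeteria 13.

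Since the subunits work only together and their genes share the stretch of DNA between them, the correlation of Hadha with Hadhb over the 9 arrays was computed. Pearson's r was 0.50 (two-sided exact permutation p = 0.179) and Spearman's rho was 0.22 (exact permutation p = 0.581). The relation rests on cafeteria 13, which was lowest for both genes: r was -0.11 without it, and 0.18 without the pair of arrays farthest from the median of Hadha. Within extraction run 2 (6 arrays, cafeteria 13 among them) r was 0.59. Among 10494 named genes, Hadhb ranked 884th by r with Hadha. The genes most like Hadha over the 9 arrays were Tpst2 (r = 0.92), a protein-tyrosine sulfotransferase, Soat2 (r = 0.92), which makes cholesterol esters, and Rbbp5 (r = 0.92), a subunit of histone methyltransferases. They were picked as the highest of 10494 genes over only 9 arrays, and their likeness was not tested. Their log2 fold changes were -0.0079, 0.0034 and 0.019.

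The second dehydrogenation of short and medium chains is made by Hadh, read by 2 probes on chromosome 2 (probe 1 at 228698567 to 228698626 and probe 2 spanning 228708020 to 228712088 in 4069 bases, minus strand). Probe 1 averaged 0.056 ± 0.12 (SD, n = 5) in cafeteria rats and -0.0088 ± 0.13 (SD, n = 4) in control rats, giving a log2 fold change of 0.065 (SE 0.081). The difference on probe 1 was 0.015 without control 13, 0.034 without cafeteria 1, 0.037 without cafeteria 10, 0.12 without control 7 and 0.10 without cafeteria 4, and it was 0.012 with median centring. Probe 2, with Cy5 only 4.01 to 8.00 times the local background, gave 0.018 (SE 0.075), which ran from -0.075 with the slide as a block to 0.17 with the authors' values (0.046 after centring) and was -0.039 without control 7. The probes did not follow each other from array to array (r = -0.31).

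Acaa2, the thiolase that cleaves short and medium chains in the final step, had the largest fold change of the 10 genes. On probe 2 (chromosome 18, 71605225 to 71605284, plus strand) the ratios were -0.21, 0.16, 0.050, 0.046 and -0.22 on cafeteria arrays 1, 4, 7, 10 and 13, against -0.29, -0.48, -0.62 and -0.050 on control arrays 1, 4, 7 and 13. On probe 1 (71601125 to 71601184, plus strand) they were -0.37, 0.12, -0.024, 0.0057 and -0.30 in the same cafeteria arrays, against -0.50, -0.37, -0.84 and -0.13 in the same controls. Control 13 overlapped the cafeteria range on both probes, control 4 was level with the lowest cafeteria array on probe 1, and control 7 was lowest on both. The log2 fold changes were 0.32 on probe 2 (SE 0.12, 1.25-fold, limma unadjusted p = 0.0265) and 0.34 on probe 1 (SE 0.15, 1.27-fold, limma unadjusted p = 0.0419), both with an adjusted p of 0.997.

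The size of the Acaa2 difference varied between extraction runs and slides. On probe 2 it was 0.71 within run 1 (1 cafeteria and 2 control arrays), 0.085 within run 2 (4 and 2), 0.075 within slide 3 and 0.096 within slide 5. On probe 1 these values were 0.72, 0.14, 0.13 and 0.14. The values within run 2 and within the slides rest on the same 2 control arrays. With the slide as a fixed block the difference was 0.086 on probe 2 and 0.13 on probe 1, and with the run as a block, an alternative chosen after seeing the data, it was 0.29 and 0.34. All were above 0. Without control 7 the differences were 0.24 on probe 2 and 0.22 on probe 1, and without control 13 they were 0.43 and 0.45. The scanner software's log ratio gave 0.40 and 0.56, and the authors' values gave 0.55 and 0.66, or 0.43 and 0.54 after centring.

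Decr1, the dienoyl-CoA reductase that lets unsaturated fatty acids enter the cycle (chromosome 5, 30492220 to 30492279, minus strand), lay in the other direction and had the smallest unadjusted p of the 10 genes. It was at 0.15, -0.34, -0.11, -0.11 and 0.084 on cafeteria arrays 1, 4, 7, 10 and 13, against 0.20, 0.020, 0.37 and 0.35 on control arrays 1, 4, 7 and 13. All 4 controls had positive ratios, 3 of 5 cafeteria arrays had negative ones, and the groups overlapped through control 4. The means were -0.064 ± 0.19 (SD, n = 5) in cafeteria rats and 0.24 ± 0.16 (SD, n = 4) in control rats, giving a log2 fold change of -0.30 (SE 0.11, 0.811 times the control level, limma unadjusted p = 0.0224, adjusted p = 0.997). The difference was -0.048 within slide 3, -0.46 within slide 5, -0.54 within run 1 and -0.27 within run 2. With the authors' values it was -0.16, or -0.28 after centring.

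**Figure D3:**
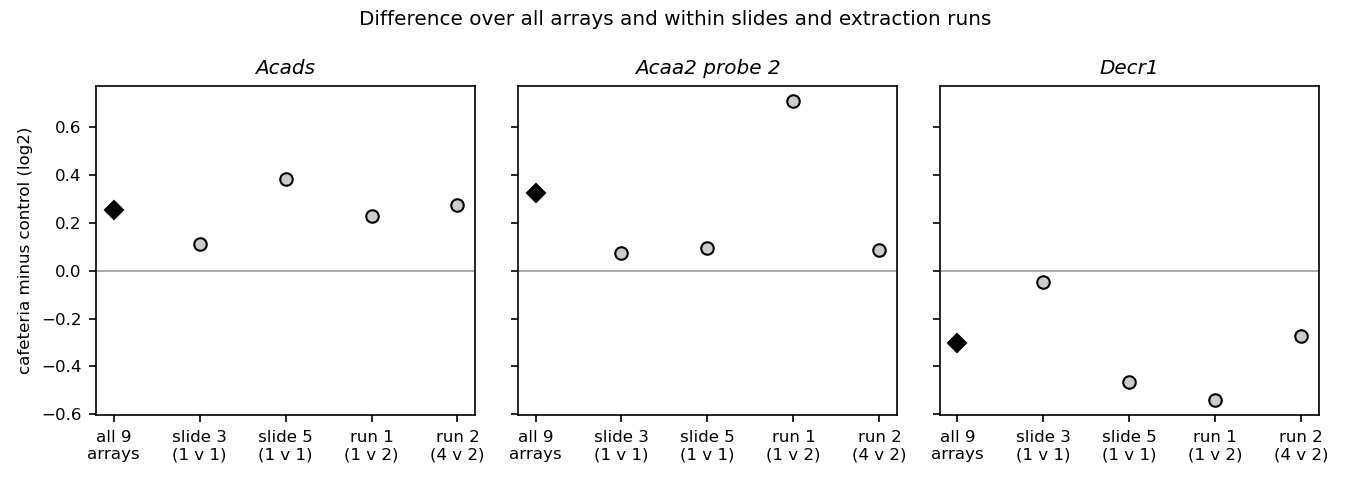
Difference of cafeteria minus control on the log2 scale (vertical axis) for Acads, Acaa2 probe 2 and Decr1, over all 9 arrays (diamond) and within each slide or feature extraction run that held both groups (circles, with the number of cafeteria and control arrays). Acads keeps 0.11 to 0.38 in the 4 comparisons, Acaa2 is at 0.71 in run 1 and under 0.10 in the other 3, and Decr1 runs from -0.54 to -0.048. Both slides lie within run 2 and hold its only controls, so these other 3 comparisons are not independent.

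From array to array the 10 genes, each taken by its probe of highest mean signal, moved together only loosely. Of the 45 pairs of genes, 30 had a Pearson r above 0 over the 9 arrays, with a median of 0.13 and a range from -0.66 to 0.73. The pairs with the highest r were Acadvl with Hadh (r = 0.73, Spearman's rho = 0.68, exact permutation p = 0.0225 for r) and Acadl with Acaa2 (r = 0.73, rho = 0.73, exact permutation p = 0.0265 for r), and the lowest was Acaa2 with Decr1 (r = -0.66, rho = -0.70, exact permutation p = 0.0512 for r). After Benjamini-Hochberg adjustment over the 45 pairs the lowest p was 0.596. Both diets are pooled in these correlations, so a group difference in both genes enters r. For Acaa2 and Decr1 the log2 fold changes were 0.32 and -0.30, and their correlation within each diet was not tested. Without the pair of arrays farthest from the median of the first gene, r was 0.76 for Acadvl with Hadh, 0.46 for Acadl with Acaa2 and -0.25 for Acaa2 with Decr1. Within extraction run 2 (6 arrays) the same values were 0.73, 0.44 and -0.54, and run 1 held too few arrays. Acadvl and Hadh are read here by probe 1, whose r with probe 2 of its gene was 0.34 for Acadvl and -0.31 for Hadh.

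Probes of the same gene gave a measure of how far such small differences could be read at all. Across the 6 pairs of probes that share a gene the median r was 0.33. Several of these pairs are of Hadha alone. Some involve a dim probe, Hadha probe 1 or Hadh probe 2, with Cy5 at 1.66 to 4.17 and 4.01 to 8.00 times the local background. The Acaa2 probes followed each other closely (r = 0.94, rho = 0.95, exact permutation p = 2.04e-04, adjusted over the 6 pairs 0.00122, and r = 0.86 without the 2 arrays farthest from the median). The other 5 pairs ran from -0.31 for Hadh to 0.47 for Hadha probes 2 and 3. The residual SD of the 10 genes had a median of 0.17 on the log2 scale, against 0.13 for all probes tested, and the 95% intervals of the 15 member probes reached up to 0.67 (Acaa2 probe 1) and down to -0.55 (Decr1). Other intervals were narrower, such as -0.14 to 0.16 for Hadha probe 3.

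**Figure D4:**
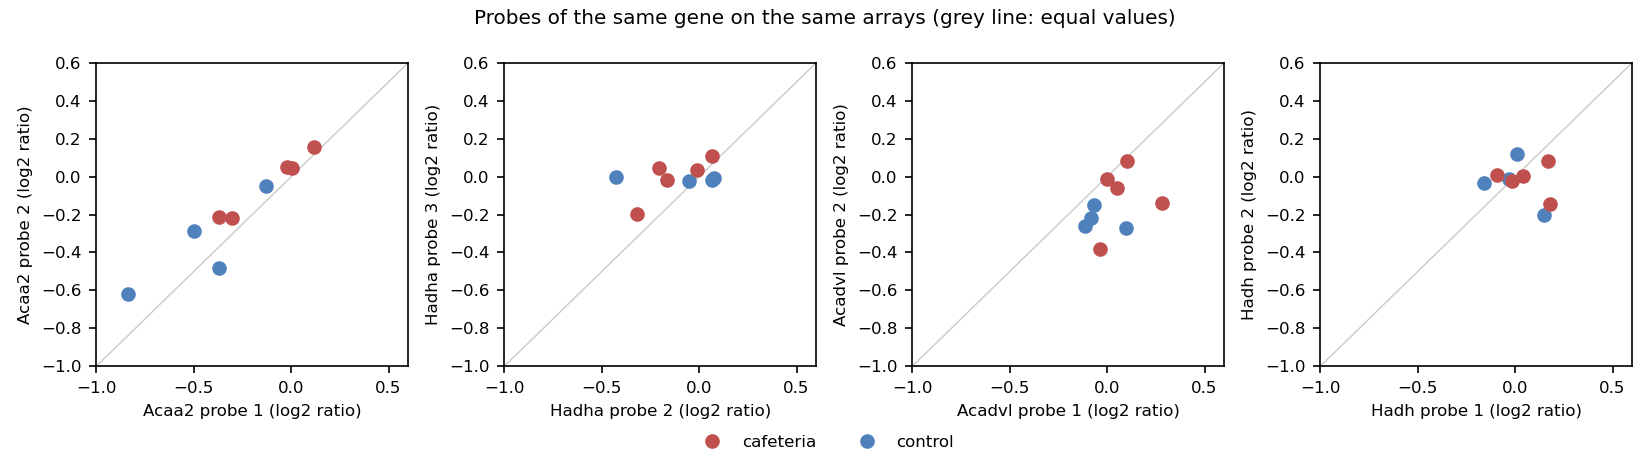
Log2 ratio to the pool on one probe (horizontal axis) against another probe of the same gene (vertical axis) for Acaa2, Hadha, Acadvl and Hadh, with cafeteria arrays in red and control arrays in blue and a grey line where both would be equal. The Acaa2 points lie along the line (r = 0.94), and those of Hadh do not (r = -0.31).

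The steps around the cycle were read from lists of 39 further genes, of which 33 passed the filter. None had an adjusted p under 0.05 (limma), 21 had a log2 fold change above 0 and 12 below, with a median of 0.036. Without cafeteria 1 the count above 0 was 17 of 33 and the median 0.00063, without control 4 the median was 0.012, and without control 7 it was 0.022. An unadjusted p under 0.05 was found for 2 genes with higher values, both of the carnitine shuttle, and for 1 with lower values. The median was 0.042 for carnitine shuttle and activation (9 of 11 genes measured, 7 above 0), 0.059 for electron transfer and auxiliary enzymes (11 of 11, 8 above 0), -0.042 for the sister enzymes of amino acid breakdown (6 of 6, 1 above 0) and 0.059 for regulators and PPAR alpha targets (7 of 11, 5 above 0). Cpt1c, Acsl6, Ppara, Ppargc1a and Pdk4 were among the genes that did not pass the filter on dim probes.

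Ahead of the cycle, Cpt1a, which loads fatty acids onto carnitine, stood apart from the enzymes themselves, with 0.12 ± 0.12 (SD, n = 5) in cafeteria rats and -0.41 ± 0.15 (SD, n = 4) in controls. Its groups did not overlap, and its log2 fold change of 0.53 (SE 0.086) had a limma adjusted p of 0.455. The lowest of that list was Acsl5, a long-chain acyl-CoA synthetase, at -0.054. Behind the dehydrogenases, Etfb, a subunit of the flavoprotein that takes their electrons, had the highest value of its list at 0.33 (SE 0.21). That mean leaned on cafeteria 13, which was at 0.80, with the next highest array at 0.16. Acad9, needed for the assembly of respiratory complex I, had the lowest at -0.045.

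Of the 6 genes in the list of sister enzymes of amino acid breakdown, 5 had a log2 fold change below 0. Gcdh, for lysine and tryptophan, was highest at 0.061, and Ivd, for leucine, was lowest at -0.12. Among the regulators, Rxra, the partner of PPAR alpha, was highest at 0.11 (SE 0.071). Ppargc1b, a coactivator of oxidative genes, was lowest at -0.27 (SE 0.10, limma unadjusted p = 0.0301, adjusted p = 0.997), with -0.086 ± 0.18 (SD, n = 5) in cafeteria rats and 0.18 ± 0.15 (SD, n = 4) in controls. These genes were chosen as the highest and lowest of each list, and differences between the lists were not tested.

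**Figure D5:**
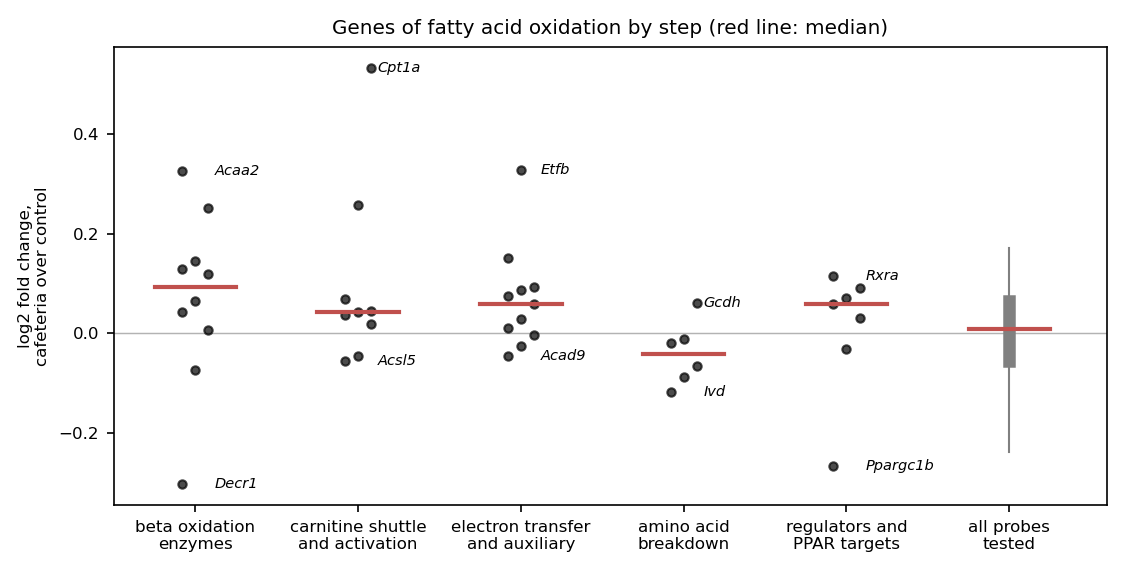
Log2 fold change of cafeteria over control (vertical axis) for the 10 beta oxidation genes and 4 lists of neighbouring genes (dots, with the median as a red line), beside all probes tested (box from the 25th to the 75th percentile, line from the 5th to the 95th). Cpt1a at 0.53 lies above every beta oxidation gene, and the medians of the lists run from -0.042 to 0.092.

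Markers of blood cell types were read on the same arrays and are given by their sign, beside the 54.3% of all probes that were above 0. All 6 measured erythroid markers were above 0 (median log2 fold change 0.47, array means of -0.35 to 0.045 in cafeteria rats and of -0.80 to -0.42 in controls), as were 5 of 5 NK cell markers (median 0.36, array means of -0.21 to 0.59 in cafeteria rats and of -0.53 to -0.11 in controls) and 5 of 5 B cell markers (median 0.30, -0.27 to 0.43 in cafeteria rats and -0.30 to 0.16 in controls). All 7 measured T cell markers were below 0 (median -0.22, -0.51 to 0.092 in cafeteria rats and -0.23 to 0.23 in controls). All 3 platelet markers were below 0 (median -0.41, -0.65 to 0.37 in cafeteria rats and -0.42 to 1.36 in controls), as were 3 of 4 monocyte markers (median -0.084, -1.17 to 0.52 in cafeteria rats and -0.52 to 0.21 in controls) and 3 of 4 neutrophil markers (median -0.19, -0.71 to 0.16 in cafeteria rats and -0.42 to 0.18 in controls). No marker had an adjusted p under 0.05 by limma. An unadjusted p under 0.05 (limma) was found for 4 erythroid and 2 NK cell markers, higher in cafeteria rats, and for 2 T cell markers, lower. No marker of the other types had one, against 4.40% of all probes. Groups did not overlap for the erythroid markers Ahsp (log2 fold change 1.02) and Alas2 (0.61), as for 1.27% of all probes, and they overlapped for the other markers. The part of the markers in the values of Acads, Acaa2 and Decr1 was not tested.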

How the data were processed

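PBMC RNA of 9 rats was hybridised to 1 two-colour array per animal. The deposited scanner files hold spot and local background intensity of both dyes, read without normalization, and the scanner software's dye-normalized ratio on a log10 scale, per the file headers. A table deposited by the authors holds log2 values for 21466 of 45220 spots. They followed Cy5 (rank correlation 0.993 to 0.999) with medians from 9.40 to 9.69, so they were not centred, and how the reference entered them is unknown.

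Background was corrected by normexp (offset 50) and Cy5 over Cy3 normalized by loess within arrays. Repeated spots were averaged after dropping those marked as non-uniform or as outliers. Probes with Cy5 well above background on at least 4 arrays were kept (25805 of 41012). limma 3.58.1 (R 4.3.3, statmod 1.5.0, data.table, version 1.17.8, 7 residual and 2.94 prior degrees of freedom) compared cafeteria with control, with Benjamini-Hochberg adjustment over all probes and a threshold of 0.05. The number of arrays limits the precision. Correlations were tested with exact permutations in Python 3.11.15, and figures drawn with matplotlib 3.10.9. The fit was tested on simulated data.

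Names were updated through a RefSeq gene table (19441 probes matched, 47.4%). Positions are those of the files (rn4, per the file headers), which give neither exon nor untranslated region. Promoter windows are RefSeq's (GRCr8).

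The alternatives were no background correction, the scanner log ratio, median centring, Cy5 alone, no filter, the authors' values with and without centring, slide and replicate blocks, and leaving out each array. The members and lists were chosen with earlier results of these data known. All members, the highest and lowest gene of each neighbouring list and the 3 genes most like Hadha are named. A gene of the neighbouring lists is not reported here. The rat's age (6 months) and diet (4 months) are from the labels.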

Additional observations from a re-analysis of the deposited data

Results flagged for a closer look

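On Hadha probe 1, the array of cafeteria 7 stood apart from the other 4 cafeteria arrays, at a log2 ratio of 0.10 against 0.010 for the nearest of them, a gap of 0.760 of the group's range where 0.71 is the 95% limit for 5 samples. It was the only such case in 30 groups of arrays, where chance gives about 1 in 20, and the value lay inside the range of the controls. The probe is the dimmest of the 15.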

How the results depend on the processing

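No member probe passed the adjusted threshold under any alternative in which it was fitted (lowest adjusted p 0.389, with the authors' values). There were 19 for each probe except Hadha probe 1, which had 17 because the authors' table gave no fitted value for it. Of the 15 member probes, 8 kept their sign under all 19 (both Acadvl probes, Acadm, Acads, Hadh probe 1, both Acaa2 probes and Decr1) and 7 did not. Over all probes the count of calls, 2, was 0 with no background correction, the scanner log ratio, median centring, Cy5 alone, the authors' values (centred or not), the slide block and the replicate block, 2 with no filter, 3 with the extraction run as a block (added after seeing the data) and 0 to 2 when leaving out 1 array. The authors' values shift the median of all probes by 0.13, and the members' median there was 0.27, or 0.15 after centring. The slide block gave -0.047 for Acadl, -0.11 for Echs1 and -0.075 for Hadh probe 2. It draws only on the slides that hold both groups. Median centring gave 0.014 for Hadha probe 2, -0.016 for Hadha probe 3 and 0.040 for Hadhb. Cy5 alone gave 0.078 for Hadha probe 1 and 0.071 for Hadhb, while the median of all probes was only 0.012. The authors' values gave 0.082 for Hadha probe 2 and 0.092 for Hadhb, or -0.040 and -0.030 after centring. The turns of sign with the authors' values thus lie within a shift of all probes. So does that of Hadha probe 2 with median centring, where the median of all probes was 0.024. Without control 1 and without cafeteria 13 this probe was at 0.0064 and 0.0043, against medians of 0.013 and 0.0069. The extraction run block gave -0.0013 for Echs1 and -0.0034 for Hadh probe 2. Leaving out 1 array gave -0.017 to 0.14 for Echs1, -0.16 to 0.0093 for Hadha probe 2, -0.023 to 0.054 for Hadha probe 3, -0.19 to 0.018 for Hadhb and -0.039 to 0.069 for Hadh probe 2. The correlation of Hadha with Hadhb ran from -0.11 (without cafeteria 13) to 0.67. The cause of these changes was not tested. Replicate numbers recur in both groups but did not pair the arrays: deviations of same-numbered arrays correlated at -0.048, 0.11, 0.099 and -0.15. The replicate block gave -0.0032 for Hadha probe 3 and -0.0064 for Hadh probe 2 and 0 calls over all probes. With the scanner log ratio, which has its own dye normalization, the differences were -0.43 for Hadha probe 1, 0.16 for Hadh probe 2 and 0.56 for Acaa2 probe 1. The main fit gave -0.060, 0.018 and 0.34 for these probes, and no background correction gave -0.065, 0.095 and 0.49. Which processing step moved them was not tested.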
